A study of Mus musculus with 10 samples.

Results

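The genes described here are 33 markers of the distal nephron and collecting duct, the stretch of kidney tubule that runs from the thick ascending limb to the collecting duct, as they appear in RNA of isolated glomeruli. They were chosen by name for the segment or cell each is best known for, although several are used in more than 1. Counts and medians by segment below are those of such lists of genes. Each was read from the 1 probe set with the highest mean over the 10 arrays among probe sets annotated to exactly 1 gene. In total 32 of the 33 were measured, among 18194 genes represented in the same way, and Trpv5, an epithelial calcium channel, was not analysed here.

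Glomeruli came from 5 heterozygous knockin mice (Wt1 +/R394W, called mutants 1 to 5), which carry the R394W change on 1 allele, and from 5 littermates with no mutant allele (Wt1 +/+, called wild types 1 to 5). All 10 were unweaned males aged 27 days after 4 backcross generations to FVB/N, and all had magnetic beads perfused through the heart to collect glomeruli. Wt1 encodes a transcription factor of podocytes, and the same change of the protein causes Denys-Drash syndrome, a kidney disease of children. The mutants used had little albuminuria and no mesangial lesions, so they stand for a stage before lesions seen by light microscopy. Each mouse gave 1 preparation and 1 array, the allele is germline and present in every cell, and which mice shared a litter was not given in the sources used here. Values are log2 expression values made with RMA, which sets arrays on a common scale. A difference of 1 is therefore a 2-fold difference.

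The thick ascending limb reabsorbs salt without water and builds the gradient that concentrates urine, and its end touches the parent glomerulus at the macula densa. The distal convoluted and connecting tubule adjusts sodium, calcium and magnesium. In the collecting duct, principal cells handle water and sodium under vasopressin and aldosterone, and intercalated cells secrete acid or base. None of these cells belongs to the glomerular tuft, so their transcripts in a bead preparation are commonly used as a sign of tubule pieces carried along. In such bulk RNA, fewer cells of a type and less RNA per cell cannot be told apart.

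The arrays carried the identity of their tissue. The mean of 6 podocyte genes (Nphs1, Podxl, Synpo, Ptpro, Tcf21, Clic5) lay between 13.26 and 13.39 in wild types and between 13 and 13.31 in mutants, and that of 6 endothelial genes lay between 12.22 and 12.59 over all 10 mice. Array medians ran from 6.3107 to 6.3924. The mean of 6 mesangial and smooth muscle genes ran from 11.14 to 11.89 and was highest in mutant 5. That of 5 leukocyte genes ran from 6.96 to 8.37. Tubule genes were also less even than podocyte and endothelial genes, and wild type 5 and mutant 5 stood apart in them. Both are described below before the genotypes are compared, and results that rest on them are given with and without them. They also carry the 2 highest animal numbers in the labels, and whether they were prepared or hybridised apart is not given in the sources used here.

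The promoters of 4 marker genes are shown because these genes, 1 for each cell type, were the ones set against each other across mice. Each sequence is the 250 bases before the RefSeq start (assembly GRCm38.p6), 5′ to 3′ on the strand of the gene. Capitals mark GTTAAT, a half-site of HNF1 factors, and TGTTTAC, a forkhead motif, each searched on both strands. Umod, which encodes uromodulin of the thick limb, lies on the minus strand and its window is chr7:119479263-119479512. Slc12a3, which encodes the thiazide-sensitive sodium chloride cotransporter of the distal convoluted tubule, has its window at chr8:94328958-94329207 on the plus strand. Aqp2, the vasopressin-regulated water channel of principal cells, has its window at chr15:99578806-99579055 on the plus strand. Atp6v1b1, a subunit of the proton pump of intercalated cells, has its window at chr6:83742767-83743016 on the plus strand.
Umod: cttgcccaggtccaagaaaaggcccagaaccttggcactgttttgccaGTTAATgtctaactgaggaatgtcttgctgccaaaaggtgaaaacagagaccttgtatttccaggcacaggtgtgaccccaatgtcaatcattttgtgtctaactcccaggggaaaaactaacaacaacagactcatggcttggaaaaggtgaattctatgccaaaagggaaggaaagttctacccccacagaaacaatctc
Slc12a3: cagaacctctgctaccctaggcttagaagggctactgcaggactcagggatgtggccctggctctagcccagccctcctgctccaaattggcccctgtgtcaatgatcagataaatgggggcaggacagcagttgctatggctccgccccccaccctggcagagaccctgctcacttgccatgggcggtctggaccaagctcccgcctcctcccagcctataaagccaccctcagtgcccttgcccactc
Aqp2: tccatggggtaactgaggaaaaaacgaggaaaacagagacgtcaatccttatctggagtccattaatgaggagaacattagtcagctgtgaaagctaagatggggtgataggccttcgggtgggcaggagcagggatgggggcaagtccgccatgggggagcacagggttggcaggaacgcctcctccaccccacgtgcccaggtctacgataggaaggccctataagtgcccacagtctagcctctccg
Atp6v1b1: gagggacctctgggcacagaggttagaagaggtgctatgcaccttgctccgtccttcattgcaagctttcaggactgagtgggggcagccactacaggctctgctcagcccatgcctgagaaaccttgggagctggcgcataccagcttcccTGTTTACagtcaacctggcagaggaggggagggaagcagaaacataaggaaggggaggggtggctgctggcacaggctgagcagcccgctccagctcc
The Umod window held GTTAAT beginning 202 bases before the start, the Atp6v1b1 window held TGTTTAC beginning 98 bases before the start, and the windows of Slc12a3 and Aqp2 held neither. RefSeq windows were found for 23 of the 33 genes (28 promoters). GTTAAT was in 2 of these 28 (7.14%), those of Umod and Kcnj16, against 6.43% of 32851 mouse promoters of the same length. TGTTTAC was in 4 of 28 (14.3%), those of Slc12a1, Egf, Avpr2 and Atp6v1b1, against 3.17%. These matches describe letters in the window and are not evidence of binding.

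By the median of each group, thick limb genes varied most from preparation to preparation. The spread used here is the standard deviation (SD) within a genotype, pooled over both genotypes. Over all 18194 genes its median was 0.13 and its 95th percentile 0.37, and 5.00% of genes lie above that percentile by its definition. Of the 7 thick limb genes 5 lay above it, as did 4 of 10 distal convoluted and connecting tubule genes, 1 of 9 principal cell genes and 1 of 6 intercalated cell genes, which makes 11 of 32. The median SD was 0.68 for thick limb genes, 0.34 for distal tubule genes, 0.19 for principal cell genes and 0.21 for intercalated cell genes. Of the 15 collecting duct genes 9 had a mean below the median signal of all probe sets (6.36), a range in which RMA values compress differences, against 1 of the 17 thick limb and distal tubule genes. The count was also 11 when each gene was set against the 95th percentile of genes of like signal. Ppp1r1a then dropped out and Klk1 came in, which gave 4 of 7 thick limb and 5 of 10 distal tubule genes.

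**Figure D1:**
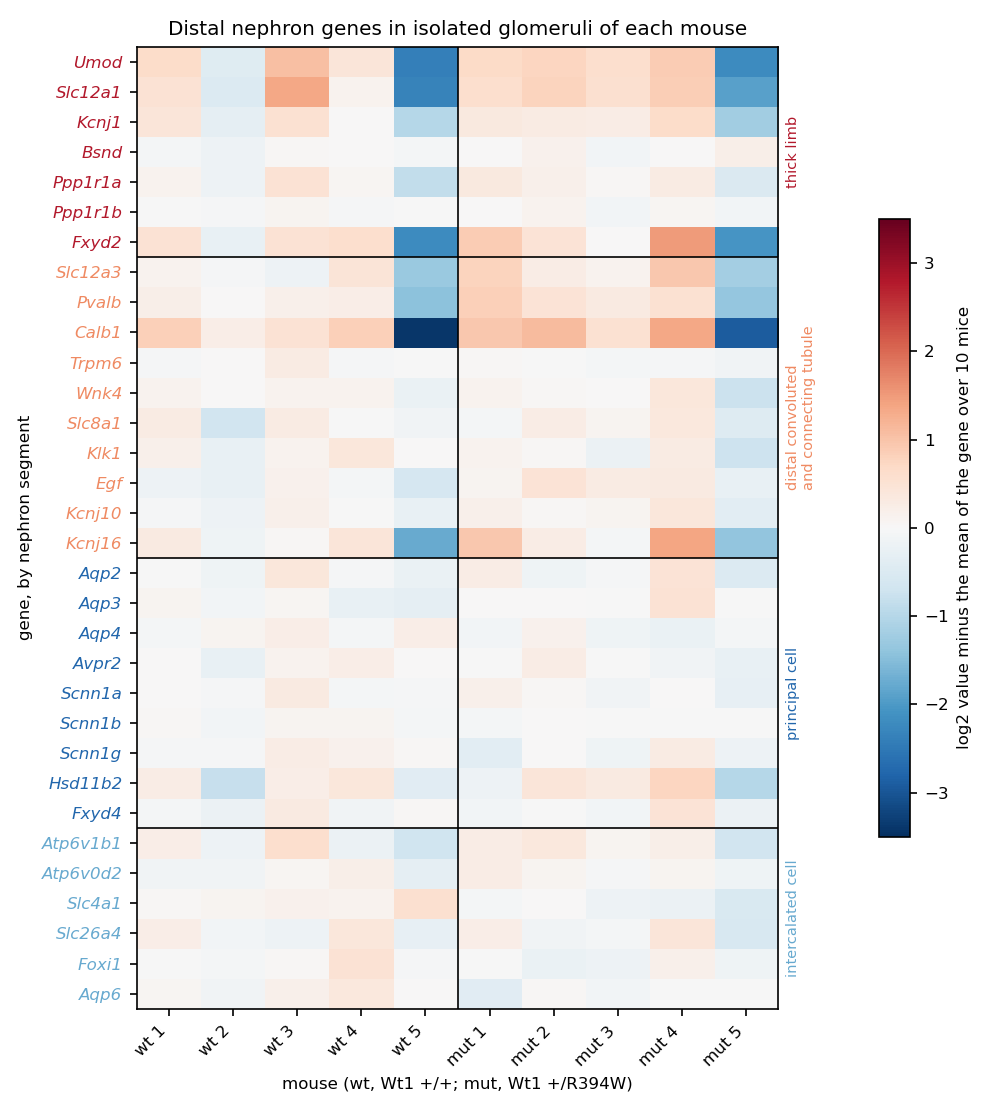
Heat map of the log2 value of each of 32 genes (rows, ordered by segment) in each of 10 mice (columns), minus the mean of the gene over the 10 mice. Wild type 5 and mutant 5 were the lowest of their genotype in 17 of 32 genes, and Calb1 has the widest range, from 4.53 to 9.29.

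Umod encodes uromodulin, the most abundant protein of normal urine. In wild types 1 to 5 its values were 12.50, 11.43, 12.91, 12.30 and 9.47, and in mutants 1 to 5 they were 12.54, 12.63, 12.46, 12.76 and 9.67. Wild type 5 lay 1.96 below the next lowest wild type, a 3.90-fold gap, and mutant 5 lay 2.79 below the next lowest mutant, a 6.91-fold gap. The other 4 mutants ranged from 12.46 to 12.76, whereas the other 4 wild types ranged from 11.43 in wild type 2 to 12.91 in wild type 3. The second probe set of Umod had an SD of 1.37, close to the 1.34 of the first.

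Slc12a1 encodes the sodium-potassium-chloride cotransporter that is blocked by furosemide. Its values were 10.22, 9.23, 11.07, 9.83 and 7.39 in wild types 1 to 5 and 10.31, 10.49, 10.27, 10.58 and 7.81 in mutants 1 to 5. Wild type 5 and mutant 5 were again lowest, and wild type 3 was highest of all 10. A second Slc12a1 probe set had an SD of 0.22, at a mean below the median signal of all probe sets. Fxyd2, the gamma subunit of the sodium pump, had an SD of 1.27 and ran from 7.74 in wild type 5 to 11.43 in mutant 4. Kcnj1, the potassium channel ROMK that recycles potassium for Slc12a1, had an SD of 0.68, and Ppp1r1a, an inhibitor of protein phosphatase 1, had an SD of 0.43. In all 5 of these thick limb genes wild type 5 was the lowest wild type and mutant 5 the lowest mutant.

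The other 2 thick limb genes did not share this. Bsnd, the barttin subunit of the basolateral chloride channels, ran from 6.18 to 6.55 over the 10 mice with an SD of 0.10. Mutant 5 had its highest value. The mean of Bsnd, 6.36, was at the median signal of all probe sets, so a difference could have been compressed in it. Ppp1r1b, another phosphatase inhibitor, ran from 7.23 to 7.45 with an SD of 0.08. Both lay below the median SD of all genes.

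**Figure D2:**
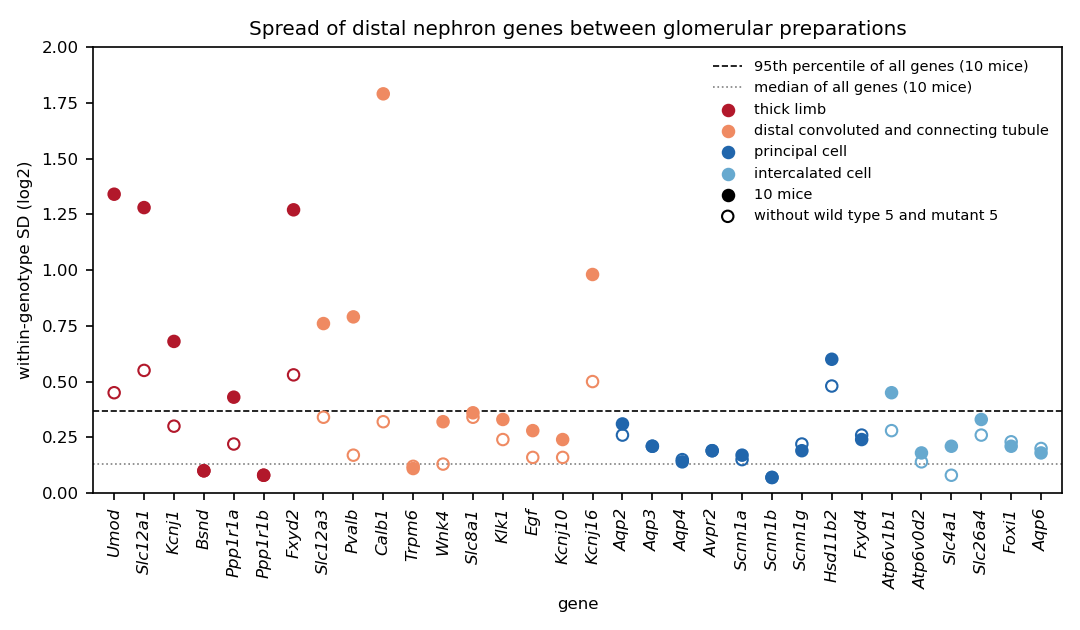
Pooled within-genotype SD (log2 units) of each of 32 genes, coloured by segment or cell type, over 10 mice (filled) and without wild type 5 and mutant 5 (open), with the median (0.13) and 95th percentile (0.37) of all genes over 10 mice as lines. The highest filled points are Calb1 (1.79), Umod (1.34), Slc12a1 (1.28) and Fxyd2 (1.27), and the open points of these 4 lie between 0.32 and 0.55.

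In the distal convoluted and connecting tubule the 4 genes above the 95th percentile were Calb1, Kcnj16, Pvalb and Slc12a3. Calb1 encodes calbindin-D28k, the calcium buffer of this segment. Its values were 8.78, 8.19, 8.44, 8.78 and 4.53 in wild types 1 to 5 and 8.88, 9.05, 8.47, 9.29 and 5.04 in mutants 1 to 5. The gap below the other 4 mice was 12.7-fold in wild types and 10.7-fold in mutants, while those other 8 mice spanned 8.19 to 9.29. The SD of 1.79 was the widest of the 32 genes, and without wild type 5 and mutant 5 it was 0.32.

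Kcnj16, a subunit of the basolateral potassium channel of this segment, had values of 7.92, 7.46, 7.67, 8.03 and 5.84 in wild types 1 to 5 and of 8.56, 7.89, 7.55, 9.01 and 6.24 in mutants 1 to 5. Its second probe set had an SD of 0.99 beside 0.98 for the first. Slc12a3 had values of 8.09, 7.94, 7.80, 8.42 and 6.67 in wild types and of 8.76, 8.22, 8.10, 8.90 and 6.78 in mutants. In both genes wild type 5 and mutant 5 were lowest, and wild type 4 and mutant 4 were highest. The second probe set of Slc12a3 had an SD of 0.08 at low signal. Pvalb, the calcium-binding protein parvalbumin of the early distal convoluted tubule, had an SD of 0.79.

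The 6 other genes of this segment lay under the 95th percentile. Slc8a1, the sodium-calcium exchanger, had an SD of 0.36, but another of its probe sets had an SD of 0.66, above the percentile, with wild type 5 (6.45) and mutant 5 (6.88) the lowest of their genotype. Wnk4, a kinase that regulates Slc12a3, had an SD of 0.32. Egf, the precursor of epidermal growth factor, which this segment secretes, had an SD of 0.28. Kcnj10, the partner of Kcnj16, had an SD of 0.24, and Trpm6, the magnesium channel, had an SD of 0.11. Mutant 5 was the lowest mutant in all 10 genes of the segment and wild type 5 the lowest wild type in 7 of them.

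Klk1, tissue kallikrein of the connecting tubule, depended on the probe set. The one with the highest mean had an SD of 0.33 and ran from 9.99 to 11.11. The one with the widest spread had values of 11.49, 9.86, 11.13, 11.50 and 7.44 in wild types 1 to 5 and of 11.08, 11.15, 10.74, 11.68 and 7.81 in mutants 1 to 5, with an SD of 1.63. The other two had SDs of 1.62 and 0.07. Wild type 5 was the lowest wild type by both probe sets of wide spread but lay above wild type 2 by the one with the highest mean. Kallikreins form a large family of like sequence in the mouse, and 3 of these 4 probe sets are of a type that can match several transcripts. The one with the highest mean is among these 3, and the one with the widest spread is not. The level of Klk1 itself is uncertain.

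The collecting duct genes varied less on this scale. Aqp2 had values of 7.52, 7.38, 7.93, 7.50 and 7.30 in wild types 1 to 5 and of 7.80, 7.39, 7.51, 8.02 and 7.06 in mutants 1 to 5. Wild type 5 and mutant 5 were the lowest of their genotype, but wild type 5 lay only 0.08 below wild type 2, and wild type 3 and mutant 4 were the highest. Hsd11b2, the enzyme that protects the mineralocorticoid receptor from glucocorticoids, had values of 7.79, 6.71, 7.76, 7.91 and 7.13 in wild types and of 7.36, 7.94, 7.84, 8.27 and 6.54 in mutants. Wild type 2, not wild type 5, was its lowest wild type, and its SD of 0.60 was the only one of 9 principal cell genes above the 95th percentile.

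The subunits of the epithelial sodium channel, the target of amiloride, were even between mice, with SDs of 0.17 for Scnn1a, 0.07 for Scnn1b and 0.19 for Scnn1g. Fxyd4, a sodium pump regulator of principal cells, had an SD of 0.24, and Avpr2, the vasopressin receptor, had an SD of 0.19. The basolateral water channels Aqp3 and Aqp4 had SDs of 0.21 and 0.14. Aqp4, Avpr2, Scnn1g and Fxyd4 were below the median signal of all probe sets, so a difference between preparations could have been compressed in them.

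Among intercalated cell genes, Atp6v1b1 had values of 6.02, 5.60, 6.37, 5.58 and 5.08 in wild types 1 to 5 and of 6.03, 6.15, 5.88, 5.99 and 5.11 in mutants 1 to 5. Wild type 5 and mutant 5 were lowest and wild type 3 highest, as for Slc12a1. Slc26a4, pendrin, the anion exchanger of base-secreting cells, had values of 5.95, 5.61, 5.54, 6.09 and 5.43 in wild types and of 5.94, 5.58, 5.65, 6.12 and 5.14 in mutants. Its highest values were those of wild type 4 and mutant 4, as for Slc12a3. Foxi1, the forkhead factor required for intercalated cells, had an SD of 0.21, Aqp6, an anion-permeable aquaporin of their vesicles, one of 0.18, and Atp6v0d2, another pump subunit, one of 0.18. Of the 6 intercalated cell genes 5, all but Slc4a1, were below the median signal of all probe sets. A difference between preparations could have been compressed in them.

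Across all segments, wild type 5 was the lowest wild type and mutant 5 the lowest mutant in 17 of 32 genes, against 5.72% of all genes. This held in 5 of 7 thick limb, 7 of 10 distal tubule, 2 of 9 principal cell and 3 of 6 intercalated cell genes, and in 10 of the 11 genes with the widest spread. These 2 mice were picked out after the values were seen. Without them 5 genes (Umod, Slc12a1, Fxyd2, Kcnj16 and Hsd11b2) stayed above the 95th percentile of the 8 remaining mice, 0.34, and the median SD was 0.30 in the thick limb, 0.20 in the distal tubule, 0.21 in principal cells and 0.22 in intercalated cells.

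Proximal tubule genes were also low in wild type 5 and mutant 5. All 19 measured of 20 proximal tubule markers had an SD above the 95th percentile, and their mean was lowest in wild type 5 (6.64) and mutant 5 (6.75). It was highest in mutant 4 at 10.61, and reached 9.42 in wild types. Slc34a1, the phosphate transporter of the proximal brush border, had values of 10.42, 9.26, 9.97, 10.51 and 6.78 in wild types 1 to 5 and of 10.85, 10.18, 9.50, 11.71 and 7.12 in mutants 1 to 5. The podocyte mean was 13.29 in wild type 5 and 13.31 in mutant 5, neither of them the lowest of its genotype, and the lowest podocyte mean was that of mutant 4, at 13. The part of tubule content in the spread of the distal genes was not tested.

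Among the 8 other mice the segments did not rank alike. Mutant 4 was the highest mutant in 18 of 32 genes, against 14.4% of all genes, and 7 of these 18 were distal tubule genes. Wild type 3 was the highest wild type in 6 of 7 thick limb genes, in 4 of 10 distal tubule genes, in 4 of 9 principal cell genes and in 1 of 6 intercalated cell genes, against 28.4% of all genes. Wild type 4 was highest in 1 thick limb gene, 5 distal tubule genes, 3 principal cell genes and 4 intercalated cell genes, against 13.4% of all genes. The mean of the thick limb genes in wild types 1 to 5 was 8.94, 8.37, 9.22, 8.81 and 7.38, and that of the distal tubule genes was 8.34, 8.04, 8.34, 8.40 and 7.25. In mutants 1 to 5 these means were 9.05, 9.04, 8.83, 9.25 and 7.53 for the thick limb and 8.56, 8.46, 8.28, 8.76 and 7.21 for the distal tubule.

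The same was seen when single genes were set against each other across mice. Umod, Slc12a3, Aqp2, Atp6v1b1 and Slc34a1 gave 10 pairs. Because wild type 5 and mutant 5 lie far from the rest, coefficients are given for the 8 other mice, which mix both genotypes and whose values share array and normalization within a mouse. Slc12a3 followed the proximal gene Slc34a1, with Pearson's r = 0.86 (exact permutation test, 2-sided p = 0.00536, adjusted over the pairs 0.049) and Spearman's rho = 0.83 (exact permutation p = 0.0154, adjusted 0.0769). Umod followed the intercalated cell gene Atp6v1b1, with r = 0.80 (exact permutation p = 0.0098, adjusted 0.049) and rho = 0.83 (exact permutation p = 0.0154, adjusted 0.0769). Neither pair passed by rank, and Atp6v1b1 had a mean below the median signal of all probe sets.

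No relation was detectable between Umod and Slc12a3, at r = 0.27 and rho = 0.12 (exact permutation p = 0.545 and 0.793), or between Slc12a3 and Atp6v1b1, at r = -0.12 and rho = -0.19 (exact permutation p = 0.781 and 0.665). The 6 pairs left had r between 0.20 and 0.66 and did not pass. Over all 10 mice every pair passed by Pearson's r after adjustment. In the 8 pairs that failed over 8 mice, that pass was lost without wild type 5 and mutant 5. With so few mice, failing there does not show that no relation is left. By rank over all 10 mice, Umod with Atp6v1b1 and Slc12a3 with Slc34a1 passed after adjustment. Umod with Aqp2 (rho = 0.85) and Aqp2 with Slc34a1 (rho = 0.78) passed too, and the other pairs did not.

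**Figure D3:**
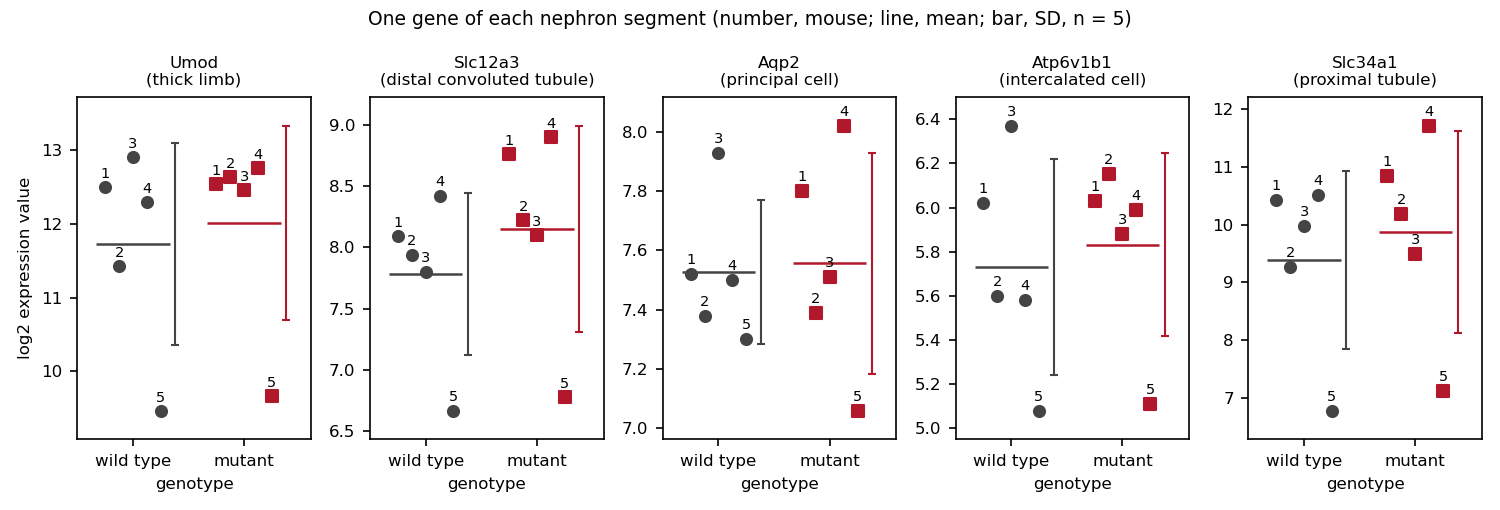
Log2 value of 5 genes in each mouse, 1 panel per gene, with wild types on the left and mutants on the right of each panel, points numbered by mouse and bars for the mean and SD of 5 mice. Mice numbered 5 are the lowest of their genotype in each panel, and the order of the other mice differs between Umod and Slc12a3.

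Between the genotypes no distal nephron gene passed the test. With limma and Benjamini-Hochberg adjustment over all 45037 probe sets, 0 of 32 genes had an adjusted p under 0.05, against 1.26% of all 18194 genes. At an unadjusted p under 0.05 there were 2 of 32, Egf and Slc4a1, against 11.0% of all genes. Changes are mutant minus wild type in log2 units with the standard error (SE) and 5 mice in each genotype. The median change was 0.14 in the thick limb, 0.22 in the distal tubule, -0.03 in principal cells and -0.10 in intercalated cells. Without wild type 5 and mutant 5 these medians were 0.22, 0.28, 0 and -0.08. With any 1 mouse left out the thick limb median ran from -0.09 (without wild type 5) to 0.46 (without mutant 5) and the distal tubule median from 0.03 to 0.36 (without the same mice). Over all 32 genes it was 0.09, beside 0.0043 over all genes, and 20 of 32 changes were above 0, beside 51.7% of all genes. Of the marker lists of other cells, 0 of 19 proximal tubule, 0 of 6 podocyte, 0 of 6 endothelial and 0 of 6 mesangial and smooth muscle genes passed. Of 5 leukocyte genes 1 fell, the macrophage growth factor receptor Csf1r (-0.99 ± 0.17, adjusted p = 0.0220, limma). The other leukocyte genes did not pass, with changes of 0.14 (Cd68), 0.14 (Lyz2), -0.06 (Cd3e) and -0.13 (Ptprc).

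The intervals of the widely spread genes were long over 10 mice and shorter without wild type 5 and mutant 5. Umod stood at 0.29 ± 0.72 (SE, adjusted p = 0.936, limma), with a 95% confidence interval from -1.28 to 1.86, so a 2-fold difference either way lies inside it. Without wild type 5 and mutant 5 the interval was -0.27 to 0.90. For Slc12a1 the change was 0.34 with an interval from -1.15 to 1.84 over 10 mice and from -0.39 to 1.04 over the 8. For Fxyd2 it was 0.33, with intervals from -1.16 to 1.83 and from -0.30 to 1.07. For Calb1 it was 0.40, with intervals from -1.69 to 2.49 and from -0.05 to 0.79. Slc12a3 stood at 0.37 ± 0.41 (interval -0.52 to 1.26, adjusted p = 0.843, limma) over 10 mice and at 0.43 with an interval from -0.01 to 0.88 over the 8. Kcnj16 stood at 0.46 (-0.69 to 1.62) over 10 mice and at 0.48 (-0.17 to 1.13) over the 8. All of these intervals hold 0. Wild type 5 and mutant 5 were picked out after the values were seen and are the lowest of their genotype in each of these genes. Leaving them out shortens the intervals by itself, so the intervals over the 8 mice exclude no difference.

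Several genes with an SD under the 95th percentile bounded the difference more closely. Ppp1r1b had an interval from -0.13 to 0.14, Scnn1b from -0.16 to 0.09 and Bsnd from -0.05 to 0.26. For Aqp2 the interval was -0.35 to 0.41, for Scnn1a -0.30 to 0.15 and for Avpr2 -0.30 to 0.19. These data exclude a 2-fold difference of the measured values in these genes at 95% confidence. Low signal may compress the scale for Avpr2, Bsnd and Scnn1b, with means of 6.27, 6.36 and 6.48.

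Egf had values of 11.52, 11.45, 11.85, 11.64 and 11.11 in wild types 1 to 5 and of 11.81, 12.18, 11.99, 12.02 and 11.45 in mutants 1 to 5. The genotypes overlapped, with mutants 2 to 4 above every wild type. The change was 0.38 ± 0.15 (SE, adjusted p = 0.465, limma), and without wild type 5 and mutant 5 it was 0.39 ± 0.11 (adjusted p = 0.270).

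Pvalb had values of 8.01, 7.80, 7.97, 8.03 and 6.36 in wild types 1 to 5 and of 8.62, 8.27, 8.11, 8.33 and 6.44 in mutants 1 to 5. Among the other 8 mice all 4 mutants lay above all 4 wild types. Over these 8 mice only Pvalb and Slc4a1 of the 32 genes had genotypes that did not overlap, a share close to the 6.33% of all genes. The change was 0.32 ± 0.43 over 10 mice (adjusted p = 0.873, limma) and 0.38 ± 0.11 over 8 (adjusted p = 0.307). Over these 8 mice 0 of 32 genes passed the adjusted threshold, against 0.758% of all genes, and 3 (Pvalb, Egf and Slc4a1) had an unadjusted p under 0.05, against 9.38% of all genes.

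Slc4a1 was the only 1 of the 32 genes whose genotypes did not overlap over all 10 mice, against 3.67% of all genes. It encodes the chloride-bicarbonate exchanger of acid-secreting intercalated cells and also band 3, the main membrane protein of red blood cells. Its values were 6.58, 6.63, 6.69, 6.67 and 7.10 in wild types 1 to 5 and 6.47, 6.55, 6.35, 6.33 and 6.0 in mutants 1 to 5. The change was -0.40 ± 0.12 (SE, 95% confidence interval -0.66 to -0.13, adjusted p = 0.254, limma), and -0.22 without wild type 5 and mutant 5 (adjusted p = 0.399). A second probe set gave -0.66 ± 0.21 (adjusted p = 0.296) and another gave -0.14 ± 0.07 (adjusted p = 0.543).

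Wild type 5, the lowest wild type in 17 of the 32 genes, was the highest of all 10 mice for Slc4a1. The other 5 intercalated cell genes had changes between -0.19 (Aqp6) and 0.11 (Atp6v0d2) and overlapping genotypes. Of 5 measured erythroid markers (of 8 listed), the mitochondrial iron importer Slc25a37 fell, with a change of -0.59 ± 0.12 (adjusted p = 0.0436, limma), and 4 did not pass. Alas2, the first enzyme of red cell haem synthesis, had values of 9.59, 8.76, 9.20, 9.01 and 10.27 in wild types 1 to 5 and of 8.23, 8.96, 8.93, 7.72 and 8.09 in mutants 1 to 5, a change of -0.98 ± 0.30 (adjusted p = 0.263). The 3 other markers had changes of 0.10 (Hba-a1, a haemoglobin chain), -0.08 (Epb42, a membrane skeleton protein that binds band 3) and -0.07 (Rhag, of the Rh complex), all of low signal, and wild type 5 was not the highest wild type in them. The mean of the 5 markers ran from 6.02 to 6.55 in wild types, with wild type 5 highest, and from 5.72 to 6.13 in mutants. The part of red cell RNA in the Slc4a1 difference was not tested.

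**Figure D4:**
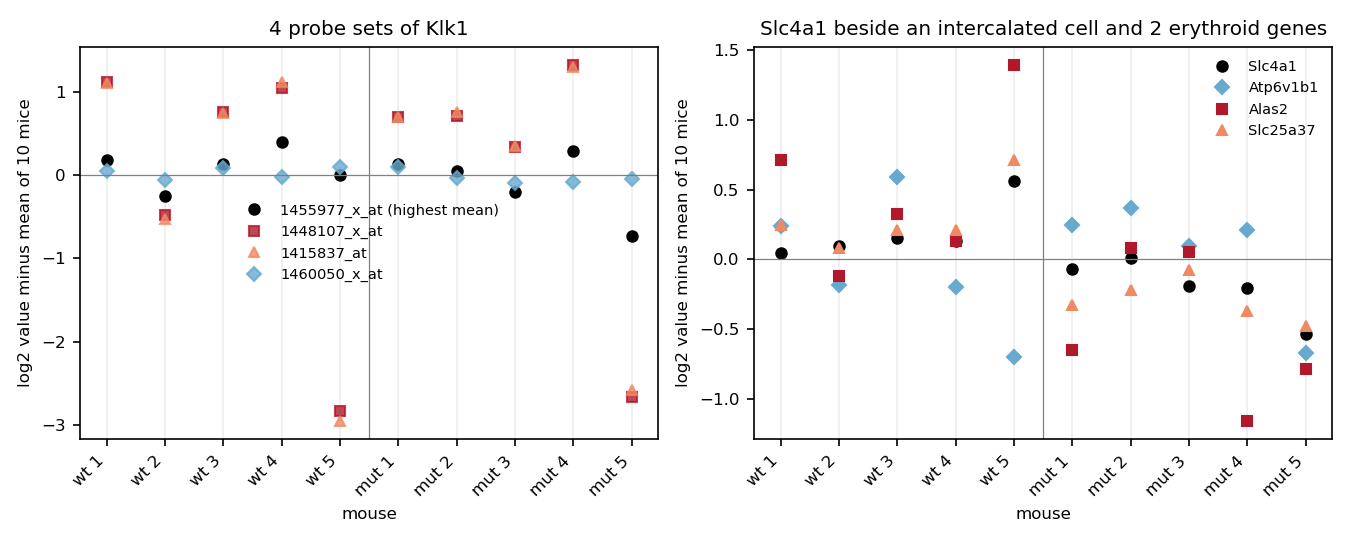
Log2 value minus the mean of 10 mice, for each mouse. The left panel shows 4 probe sets of Klk1, of which 2 are lowest in wild type 5 and mutant 5 while in the one with the highest mean wild type 5 lies at the mean of the 10 mice. The right panel shows Slc4a1 beside Atp6v1b1 of intercalated cells and 2 of the 5 erythroid genes, Alas2 and Slc25a37, those with the smallest p, and wild type 5 is highest in Slc4a1, Alas2 and Slc25a37 and lowest in Atp6v1b1 among wild types.

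Other probe sets of the same genes gave no call either. There were 29 of them, over 15 genes, and the lowest adjusted p was 0.223, for a second Slc8a1 probe set at 0.42 ± 0.12 (limma), where the one with the highest mean stood at 0.09. Direction differed between probe sets for Klk1, at -0.18 for the one with the highest mean against 0.16 and 0.21 for those of wide spread, for Trpm6 (-0.09 and 0.04), for Aqp4 (-0.16 against 0.12 and 0.06) and for Aqp6 (-0.19 and, at most, 0.15). The other 17 genes had 1 probe set.

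Further genes of the same segments were read from lists chosen by name. Of 31 measured, 0 passed the test in either direction. The median change was 0.04, and 2 had an unadjusted p under 0.05, Stk39 (0.41 ± 0.14, adjusted p = 0.322, limma), a kinase that activates Slc12a3, and Pax8 (-0.31 ± 0.12, adjusted p = 0.408), a nephron transcription factor. In 9 of the 31 the SD lay above the 95th percentile. These included the vitamin D-dependent calcium buffer S100g (SD 1.52), the thick limb claudin Cldn10 (1.07), Cdh16, the cadherin of kidney tubules (1.05), Ptger3, a prostaglandin receptor of the thick limb (1.01), and Cldn8, a claudin of the collecting duct (0.83). In all 9, wild type 5 was the lowest wild type and mutant 5 the lowest mutant. The 9 were picked by spread, which low values in these 2 mice widen, so this is no independent count. Among the further genes under the percentile, the same held in Tfap2b, Sall3 and Atp6v0a4 and in no other. By segment, 3 of 7 further thick limb genes, 3 of 8 of the distal tubule, 2 of 7 of principal cells and 0 of 7 of intercalated cells were above the percentile.

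**Figure D5:**
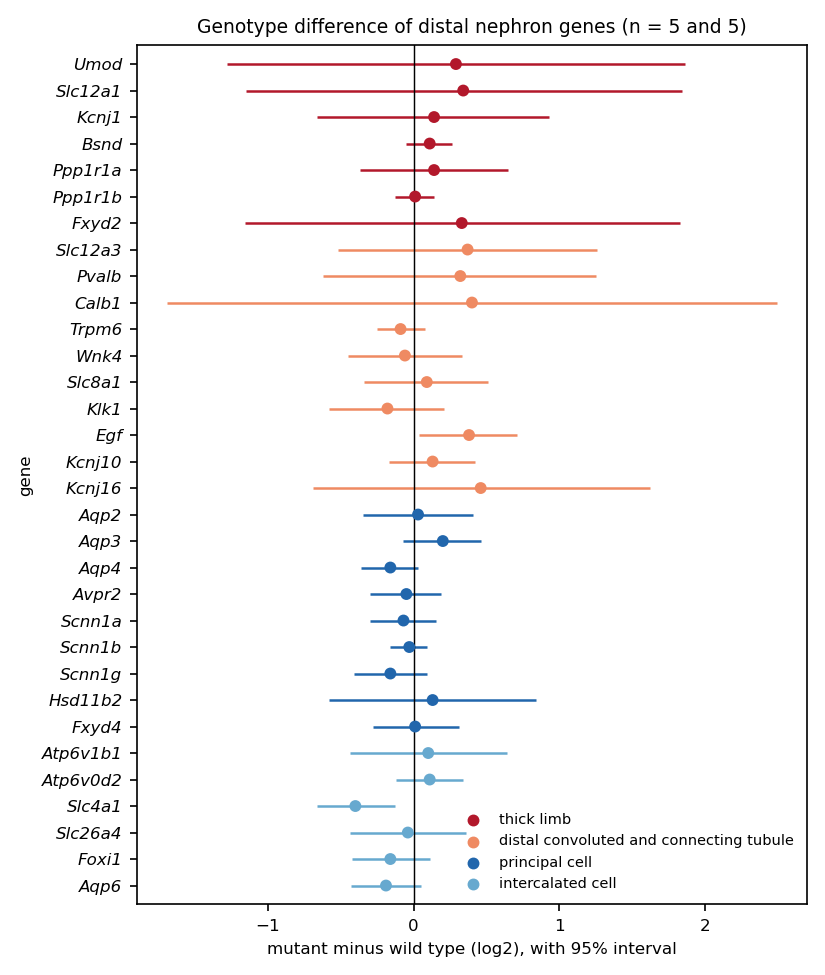
Mutant minus wild type change in log2 units for each of 32 genes with its 95% confidence interval (limma, 5 mice per genotype), grouped by segment or cell type. The interval of Slc4a1 lies below 0 and that of Egf above 0 before adjustment, none passed after adjustment over all probe sets, and the longest interval is that of Calb1.

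The direction of the median over all 32 genes was not settled, being -0.06 without wild type 5 and -0.04 with the proximal tubule mean of each array as a covariate, against 0.09 without either step. Under the settings tried, the distal tubule median was above 0 throughout (0.03 to 0.36). The intercalated cell median ran from -0.40 to a value that rounds to 0, without wild type 4. The thick limb (-0.09 to 0.46) and principal cell (-0.08 to 0.03) medians took both signs.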

How the data were processed

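RNA of glomeruli from 10 mice was hybridised to 1 Affymetrix mouse array each. The authors deposited log2 expression values made with RMA (background correction, quantile normalization, probe summaries) per the submitters' processing notes. The version of RMA is not given in the sources used here. RMA compresses differences at low signal, and precision is limited by how many arrays there are. Genotypes came from the labels, replicate numbers only name mice in accession order, and 0 columns belonged to other samples. Of 45101 probe sets 64 controls were left out. Of the 45037 tested, 34945 had exactly 1 gene in the platform annotation, 932 several and 9160 none listed, and 34741 matched RefSeq (GRCm38.p6) by gene number.

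Mutants and wild types were compared in R (version 4.3.3) with limma (version 3.58.1) over all 45037 probe sets, with 2-sided moderated tests, Benjamini-Hochberg adjustment, no covariate and a threshold of 0.05. All adjusted p-values of genes are from this fit unless a setting is named. In simulated data with 200 probe sets changed by 1 log2 unit, 90% were recovered and 3.74% of calls were false. The changed probe sets were drawn at random from all 45037, with independent noise. The 90% is therefore no guide to the genes of wide spread described here. Correlations used exact permutation over 8 mice (40320 orders) or 100000 permutations over 10, adjusted over 10 pairs. Figures used matplotlib (version 3.10.9).

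Genes, segments and lists were chosen with earlier results of these data known. All 32 genes are named, with values per mouse for the 4 segment genes, Slc34a1 and the 2 genes of each segment with the largest SD. Of other lists, called genes and some of the smallest p are named. Values per mouse of Egf, Pvalb, Slc4a1, Alas2 and the Klk1 probe set, and the further genes of wide spread, were picked after values were seen. Alternatives covered scaling, filters, variance models, weights, probe set choice, a covariate, thresholds, mice left out, and mice of neighbouring animal numbers with and without their runs as a block. The alternatives without wild type 5 and mutant 5, and the percentile within like signal, were chosen after seeing the data.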

Additional observations from a re-analysis of the deposited data

Results flagged for a closer look

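Within each genotype of 5 mice, a mouse far from the other 4 was looked for in 64 groups (each of 32 genes in each genotype), and 15 such values were found. In 9 of them wild type 5 or mutant 5 was the low one. Another 10 groups, of probe sets and genes picked after their values were seen, gave 3 more. Chance gives about 1 in 20 groups if groups are independent, and these share the same mice. In mutant 5 these were Umod at 9.67, Slc12a1 at 7.81, Kcnj1 at 5.99, Pvalb at 6.44, Calb1 at 5.04 and Atp6v1b1 at 5.11, and the 2 Klk1 probe sets of wide spread at 7.74 and 7.81. In wild type 5 they were Pvalb at 6.36, Calb1 at 4.53 and Kcnj16 at 5.84. Wild type 5 was far above the other wild types in Slc4a1 at 7.10 and in the erythroid gene Slc25a37 at 9.76. Wild type 3 was far above in Ppp1r1b at 7.42, Trpm6 at 6.98 and Scnn1a at 7.57, wild type 4 in Foxi1 at 5.96, and mutant 4 in Aqp3 at 7.08.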

How the results depend on the processing

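Over 22 settings, 0 genes had an adjusted p under 0.05 (32 genes tested, but 22 with the filter on low signal and 30 when probe sets prone to match several transcripts were left out). Over all 10 mice the count was also 0 at an adjusted p under 0.10, and 2 at an unadjusted p under 0.05, a count that ran from 1 to 5 over the settings (5 without mutant 5). The smallest adjusted p of a gene was 0.13 (Slc4a1, limma on gene means) and 0.232 with a mouse left out. The change kept its sign under every setting in 14 genes and turned under at least 1 in 18, none of them called. The count of genes with an SD above the 95th percentile was 11 to 12 with a mouse left out and 5 without wild type 5 and mutant 5. With the filter on low signal 1 intercalated cell gene, Slc4a1, was left, which set the median of that group to -0.40. The median of all genes studied ran from -0.06 to 0.16 with a mouse left out. Over 10 mice all 10 gene pairs passed (r from 0.71 to 0.97), while 2 passed without the 2 mice farthest from the median of the first gene, 2 without wild type 5 and mutant 5, and 3 to 10 with a mouse left out, with mutant 5 left out giving 3. For pairs whose first gene was Umod, Slc12a3 or Atp6v1b1, the 2 mice farthest from the median were wild type 5 and mutant 5. The 2 settings with 8 mice are therefore the same for these pairs and are no second check. The r of Slc12a3 and Atp6v1b1 turned from 0.71 to -0.12 over these 8 mice. No paired analysis was possible because replicate numbers follow accession order and the labels tie no mouse to a litter. With 2 runs of neighbouring animal numbers as a block, over wild types 2 to 4 and mutants 1 to 4, 0 genes were called and 4 had an unadjusted p under 0.05 (lowest adjusted p 0.304), against 0 and 3 without the block (0.502). Low signal limits 10 of the 32 genes, below the median of all probe sets.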
